A study of Mus musculus with 21 samples.

Results

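The R-spondin receptors Lgr4, Lgr5 and Lgr6, the R-spondin ligand Rspo1 and the Wnt feedback genes Znrf3, Rnf43, Axin2, Nkd1, Nkd2 and Apcdd1 were taken by gene symbol from an expression table of mouse epidermal keratinocytes, which gave 10 of the 22050 genes in the table. The table compared cells in which human p16 (CDKN2A), an inhibitor of cell-cycle kinases, was switched on in the skin with cells in which it was not. The genotype was K5-rtTA/tet-GFP/tet-p16 in the p16 group and K5-rtTA/tet-GFP in the control group, so that both carried the doxycycline-responsive activator rtTA under the keratin 5 promoter and a doxycycline-responsive GFP, and both received doxycycline from 3 weeks of age for 6 months. Each group held 4 samples, each a pool of about 80000 GFP+ cells sorted from the dorsal skin of 3 mice on a mixed FVB, C57Bl and 129sv background, after cells with the surface proteins CD140a, CD45 and CD31 had been gated out. The keratin 5 promoter is active in the basal layer of the epidermis and in the outer layers of the hair follicle, so the sorted cells were a mixture of epidermal and follicle keratinocytes, and in such bulk samples fewer cells of a type and less RNA per cell cannot be told apart.

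Wnt proteins bind Frizzled receptors and stabilize beta-catenin, which enters the nucleus and switches on target genes together with TCF/LEF factors. Znrf3 and Rnf43 are membrane ubiquitin ligases that remove Frizzled receptors from the cell surface, and R-spondins, bound to an Lgr receptor, draw these ligases away and so keep more Frizzled on the cell. Axin2, Nkd1, Nkd2, Apcdd1, Znrf3 and Rnf43 are themselves Wnt target genes that dampen the pathway, and in skin Lgr5 marks stem cells of the lower bulge and hair germ while Lgr6 marks cells of the isthmus and of the interfollicular epidermis.

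Values are normalized read counts, that is, reads on a gene divided by a size factor of the sample. They are not divided by gene length and the libraries sample the 3′ ends of transcripts, so levels are compared between samples for 1 gene and not between genes. Between 1760953 and 3414362 reads fell on genes per control sample and between 2884544 and 3202975 per p16 sample, and 1 read was worth 0.742 to 1.53 normalized counts in control samples and 0.781 to 0.887 in p16 samples. The human p16 transcript stood at 0.7, 1.3, 2.5 and 1.5 in control samples and at 1.6, 10.1, 16 and 7.4 in p16 samples. The library labelled p16 replicate 1, with 2 reads of the transgene, thus lay within the control range, and p16 replicate 4 differed more from the other p16 samples (chi-square of read counts per gene 6.75 to 8.96) than these differed among themselves (3.05 to 3.31). Results are therefore also given without either of these samples. Replicate 3 of both groups has another wording of the library protocol in its label. As 1 alternative, both of these samples were left out, after which 0 genes of the set were called higher and 1 lower. As another, the wording was fitted as a term, which left the same number of genes of the set called as in the main fit.

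In p16 cells, Lgr6 rose and Lgr4 fell, while Axin2 and Znrf3 rose. Of the 10 genes, 9 had a mean normalized count of at least 1 over the 8 samples and were tested with limma on log2(value + 1), and calls were made at a Benjamini-Hochberg adjusted p under 0.05 over all 12782 genes tested. Of the genes of the set, 3 were called higher (Axin2, Lgr6 and Znrf3), against 1.24% of all tested genes called higher. In the other direction 1 (Lgr4) was called lower, against 2.61% of all tested genes called lower. The other 5 tested genes, Lgr5, Rnf43, Nkd1, Nkd2 and Apcdd1, did not pass, and Rspo1 was too low to test. The values of the 2 groups did not overlap for 4 genes that were higher in p16 cells, the 3 called ones and Rnf43 (4.19% of all tested genes were of this kind), and for 1 gene that was lower, Lgr4 (5.63%). By unadjusted p, 4 genes of the set were under 0.05 and higher (Rnf43 added, 7.02% of all tested genes) and 2 were under 0.05 and lower (Lgr5 added, 8.93%). Genes of the set also stand in gene lists that the study drew from these same samples, so their direction is not independent of that choice.

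**Figure D1:**
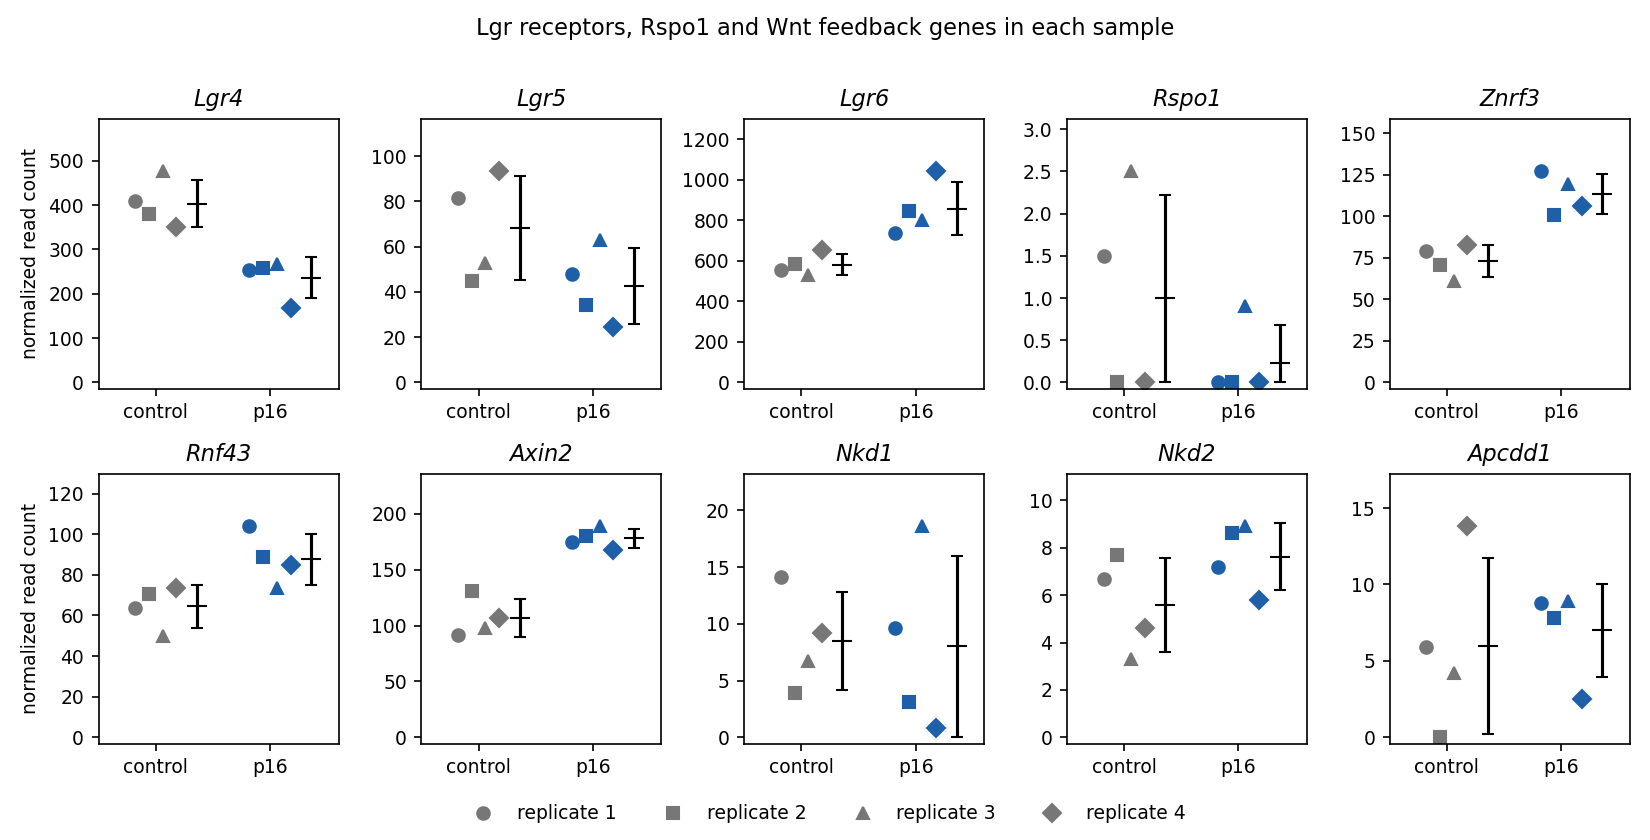
Normalized read count (y axis, from 0, a different scale in each panel) of the 10 genes in the 4 control samples (grey) and the 4 p16 samples (blue), with 1 symbol shape per replicate and, to the right of the points, the group mean with its SD (the lower end of the SD stops at 0). Lgr4 and Lgr6 separate the groups in opposite directions, Axin2, Znrf3 and Rnf43 lie higher in every p16 sample than in any control sample, and the other genes overlap.

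Rspo1, a secreted ligand of the Lgr receptors, was barely detected. Its normalized counts were 1.5, 0, 2.5 and 0 in control samples and 0, 0, 0.9 and 0 in p16 samples, which came from 5 reads and 1 read in all. No sample had more than 3 reads, the limit of detection used here, so no fold change is given. Of the other R-spondins, Rspo2 and Rspo4 were listed at 0 in every sample. Rspo3 had means of 37.2 ± 11.3 (control) and 29.4 ± 4.33 (p16) normalized counts (SD, n = 4 each) and did not pass the test (log2 difference -0.28, limma adjusted p = 0.654). Rspo3 was thus the R-spondin measurable in the sorted cells, at a level that overlapped between the groups.

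Lgr4 (ENSMUSG00000050199; GRCm38 chromosome 2, 109917647 to 110014257), a receptor for R-spondins that is broadly expressed in epithelia, fell in p16 cells. It had 408.7, 379.9, 476.1 and 349.9 normalized counts in control samples and 252.7, 258.4, 266.9 and 168.6 in p16 samples. Every p16 sample lay below every control sample, and p16 replicate 4 was the lowest of all. The mean went from 404 ± 53.9 to 237 ± 45.7 (SD, n = 4 each), which is 1.71-fold lower. On the log2 scale the change was -0.78 (standard error 0.15, 95% interval -1.09 to -0.47, limma adjusted p = 0.00722). Lgr4 passed in all 8 fits that left out 1 sample. Its limma adjusted p was 0.0190 when p16 replicate 1 was left out, and 0.00365 (log2 fold change -0.63) when p16 replicate 4 was.

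Lgr5 (ENSMUSG00000020140; chromosome 10, 115450311 to 115587780), the receptor that marks stem cells of the lower follicle, showed values of 81.6, 44.9, 52.6 and 93.2 in control samples and of 48.0, 34.4, 63.0 and 24.7 in p16 samples. The groups overlapped: p16 replicates 1 and 3 lay above control replicate 2. The mean was 68.1 ± 23.0 in control and 42.5 ± 16.7 in p16 cells (SD, n = 4 each), and the log2 fold change of -0.69 (95% interval -1.29 to -0.08) was not past the threshold (limma adjusted p = 0.241, and 0.124 to 0.468 with 1 sample left out). Its interval spans that of Lgr4, so these data do not show that the 2 receptors differ in their change. A gene on the opposite strand, A930009A15Rik, overlaps Lgr5 and was listed at 0 in every sample.

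Lgr6 (ENSMUSG00000042793; chromosome 1, 134983301 to 135105276), the receptor of the isthmus and interfollicular epidermis, rose in p16 cells. Its normalized counts were 552.7, 585.2, 532.0 and 652.4 in control samples and 738.8, 846.3, 799.8 and 1040.9 in p16 samples. Here, too, the groups did not overlap, and p16 replicate 4, the lowest sample for Lgr4, was the highest for Lgr6. Mean levels were 581 ± 52.7 and 856 ± 131 (SD, n = 4 each), a rise of 1.48-fold. The log2 difference was 0.55 (standard error 0.11, 95% interval 0.31 to 0.79, limma adjusted p = 0.0127). All 8 fits with 1 sample left out passed, with adjusted p from 0.0142 to 0.0486. The call was lost with both samples of replicate 3 left out (limma adjusted p = 0.0778), and the log2 fold change was 0.62 without p16 replicate 1 and 0.45 without p16 replicate 4.

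The opposite changes of Lgr4 and Lgr6 altered the make-up of the 3 receptors' counts within each sample, while the range of their sum overlapped between the groups. The sum of Lgr4, Lgr5 and Lgr6 was 1010 to 1096 normalized counts in control samples and 1040 to 1234 in p16 samples. Of this sum, Lgr6 made up 53.0%, 57.9%, 50.2% and 59.6% in control samples and 71.1%, 74.3%, 70.8% and 84.3% in p16 samples. Lgr4 made up 31.9% to 44.9% in control samples and 13.7% to 24.3% in p16 samples, and Lgr5 4.45% to 8.51% and 2.00% to 5.58%. These shares describe counts not divided by transcript length and follow from the values above, so they carry no test of their own.

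**Figure D2:**
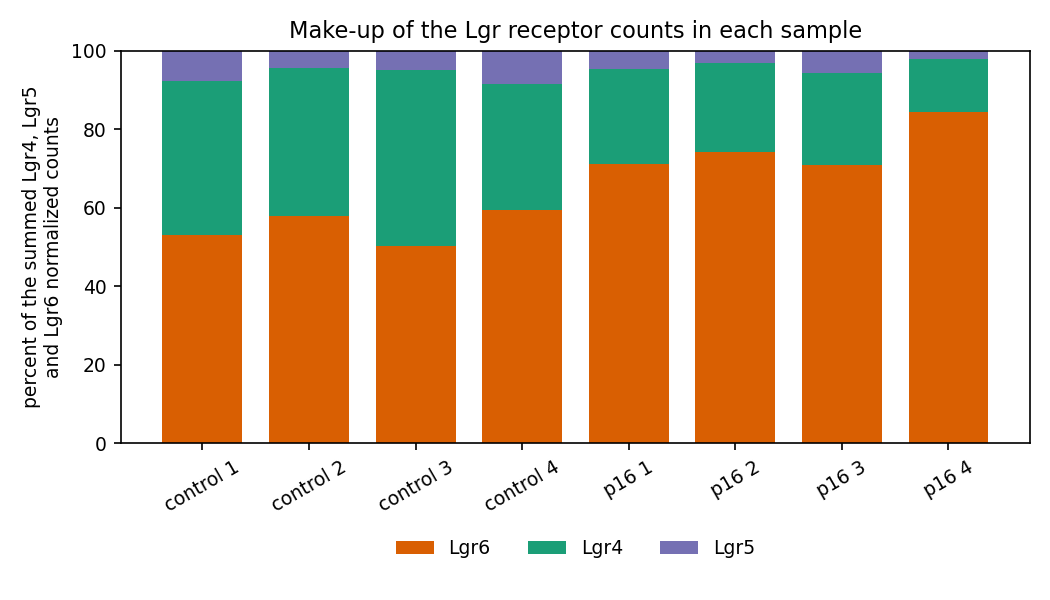
Percent of the summed normalized counts of Lgr4, Lgr5 and Lgr6 (y axis, from 0 to 100) taken by each receptor in each of the 8 samples, as stacked bars with Lgr6 at the bottom. The Lgr6 part is 50.2% to 59.6% in control samples and 70.8% to 84.3% in p16 samples.

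To ask whether pairs of genes changed unequally, 5 log2 ratios, with 1 added to each value, were computed within each sample and compared between the groups by an exact two-sided permutation test, whose smallest possible p with 4 against 4 samples is 0.0286. The Lgr6 to Lgr4 ratio was 1.35, 1.54, 1.12 and 1.86 in control samples and 2.92, 3.28, 3.00 and 6.17 in p16 samples. It was higher in all 4 p16 samples than in any control sample, with a log2 difference of 1.33 (exact permutation p = 0.0286, 0.143 after Benjamini-Hochberg adjustment over the 5 ratios). The Lgr6 to Lgr5 ratio differed by 1.24 on the log2 scale (exact permutation p = 0.0571, adjusted 0.143) and overlapped between the groups. The Lgr4 to Lgr5 ratio differed by -0.10 (exact permutation p = 0.771, adjusted 0.771). None of the 5 ratios passed after adjustment, and with 4 samples a group a single ratio at the smallest possible p could not have.

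**Figure D3:**
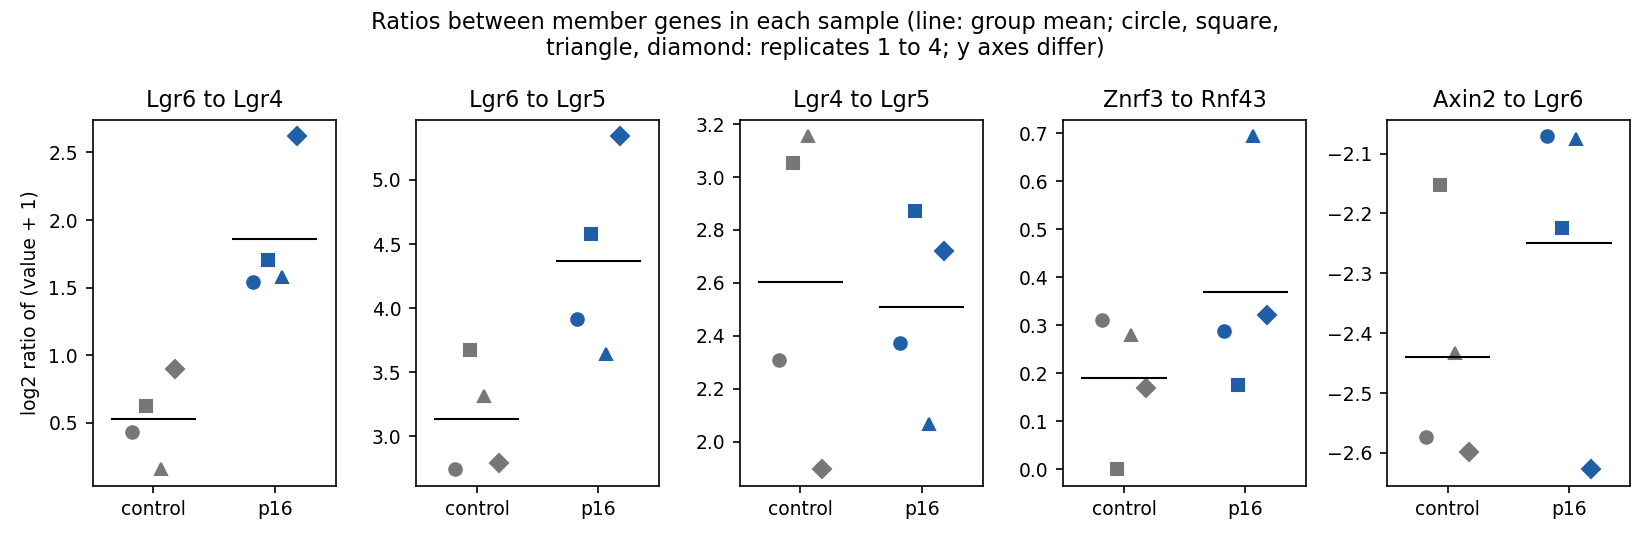
Log2 ratio of 2 genes' values, each with 1 added (y axis, a different scale in each panel), in the 4 control samples (grey) and the 4 p16 samples (blue), with a line at each group mean and 1 symbol shape per replicate. The groups separate for Lgr6 to Lgr4, where p16 replicate 4 stands above the other p16 samples, and overlap for the other 4 ratios.

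Both membrane ligases that R-spondins counteract were higher in p16 cells, and 1 of them passed the test. Znrf3 (ENSMUSG00000041961; chromosome 11, 5276324 to 5444847) had 79.4, 70.6, 61.0 and 82.5 normalized counts in control samples and 127.1, 100.7, 119.7 and 106.1 in p16 samples. The groups did not overlap. Mean levels were 73.4 ± 9.67 and 113 ± 12.1 (SD, n = 4 each), 1.55-fold apart, or 0.62 on the log2 scale (standard error 0.14, 95% interval 0.33 to 0.92, limma adjusted p = 0.0215). This call rested on single samples: 5 of the 8 fits with 1 sample left out passed, and the limma adjusted p was 0.0903 without p16 replicate 1, 0.0658 without control replicate 3 and 0.0660 without p16 replicate 3, although the log2 fold change stayed between 0.54 and 0.68.

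Rnf43 (ENSMUSG00000034177; chromosome 11, 87662722 to 87735539), the related ligase, had 63.8, 70.6, 50.1 and 73.3 normalized counts in control samples and 103.9, 89.0, 73.6 and 84.7 in p16 samples. The groups did not overlap, but by a margin of 1 sample each, 73.3 in control replicate 4 and 73.6 in p16 replicate 3. The means were 64.5 ± 10.4 and 87.8 ± 12.5 (SD, n = 4 each), and the log2 fold change of 0.44 (95% interval 0.10 to 0.79) did not pass (limma adjusted p = 0.170, unadjusted 0.0146), nor did it in any of the 8 fits with 1 sample left out. The Znrf3 to Rnf43 ratio did not separate the groups (log2 difference 0.18, exact permutation p = 0.2, adjusted 0.333). The annotation places a sense intronic transcript, 1110028F11Rik, within Rnf43 on the same strand.

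Axin2 (ENSMUSG00000000142; chromosome 11, 108920349 to 108950783), a scaffold of the complex that marks beta-catenin for destruction and a widely used readout of Wnt signalling, rose in p16 cells. Its values were 92.0, 130.9, 97.7 and 106.9 in control samples and 175.1, 180.4, 188.9 and 167.7 in p16 samples. The p16 samples lay within a narrow range, all above the highest control sample, replicate 2. The group means of 107 ± 17.2 and 178 ± 8.93 (SD, n = 4 each) differed 1.67-fold, which on the log2 scale was 0.74 (standard error 0.13, 95% interval 0.47 to 1.01, limma adjusted p = 0.00379). It passed in all 8 fits with 1 sample left out, with adjusted p from 0.00171 to 0.0190, and missed the threshold with both samples of replicate 3 left out (limma adjusted p = 0.0504). The library labelled p16 replicate 1, which had a transgene value within the control range, had an Axin2 value of 175.1, close to the other p16 samples. The Axin2 to Lgr6 ratio overlapped between the groups (log2 difference 0.19, exact permutation p = 0.314, adjusted 0.393).

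The remaining inhibitors were close to the limit of detection. Nkd1, which binds Dishevelled inside the cell, had 14.1, 3.9, 6.7 and 9.2 normalized counts in control samples and 9.6, 3.1, 18.6 and 0.8 in p16 samples. The p16 samples thus held both the highest and the lowest value, and the log2 fold change of -0.48 had a 95% interval of -1.79 to 0.83 (limma adjusted p = 0.784). Its paralog Nkd2 had 6.7, 7.7, 3.3 and 4.6 against 7.2, 8.6, 8.9 and 5.8, with overlapping groups and a log2 fold change of 0.43 (95% interval -0.29 to 1.15, limma adjusted p = 0.602). Apcdd1, a membrane glycoprotein that inhibits Wnt signalling upstream of beta-catenin, had 5.9, 0, 4.2 and 13.8 against 8.8, 7.8, 8.9 and 2.5, and its log2 fold change of 0.62 had a 95% interval of -0.79 to 2.04 (limma adjusted p = 0.725). Together with Rspo1, these genes had a mean under 10 normalized counts. Nkd1, Nkd2 and Apcdd1 had 22 to 38 reads per group, and a change of the size seen for Axin2 was within each interval. Nkd1 reads also spread widely among the p16 samples (12, 4, 21 and 1), and the part of depth in these intervals was not tested.

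**Figure D4:**
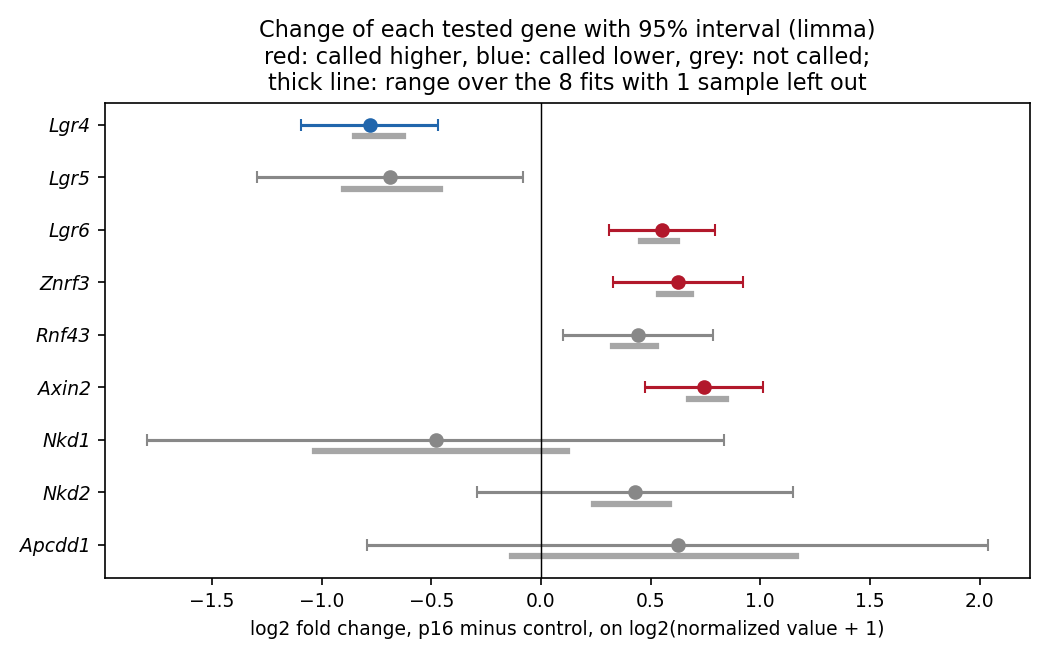
Log2 fold change of p16 minus control on the log2(normalized value + 1) scale (x axis) for the 9 tested genes, with the 95% interval from limma (thin bars) and the range over the 8 fits that left out 1 sample (thick grey lines). Lgr4 (blue) was called lower, Lgr6, Znrf3 and Axin2 (red) were called higher, and only Nkd1 and Apcdd1 have ranges that cross 0.

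To place the measured genes beside their regulatory sequence, the RefSeq promoter windows of GRCm38.p6, from 250 bases before to 50 bases after a transcription start, were searched for the core of the TCF/LEF binding site, CTTTG, on both strands. Windows of 7 of the 10 genes were searched, 8 windows in all. Lgr5, Znrf3 and Apcdd1 were not part of this search, so it says nothing about them. None of the 8 held the core, against 53.9% of the 32851 windows in the table that did, which says only that these letters are not in these windows. The windows of Lgr6, Lgr4 and Axin2, the called genes that had one, are shown because they belong to 2 receptors that moved in opposite directions and to the target gene that moved with Lgr6. Capitals mark CG dinucleotides, of which there were 24 in the Lgr6 window (chr1:135105227-135105526, minus strand), 18 in the Lgr4 window (chr2:109917397-109917696, plus strand) and 31 in the Axin2 window (chr11:108920099-108920398, plus strand), against a median of 7 over all windows.
Lgr6: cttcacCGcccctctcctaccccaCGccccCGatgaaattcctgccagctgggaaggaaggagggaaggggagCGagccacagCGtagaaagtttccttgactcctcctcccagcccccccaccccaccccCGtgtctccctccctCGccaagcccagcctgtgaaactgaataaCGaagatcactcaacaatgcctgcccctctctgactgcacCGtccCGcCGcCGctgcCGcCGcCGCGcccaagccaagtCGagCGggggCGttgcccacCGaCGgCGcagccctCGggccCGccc
Lgr4: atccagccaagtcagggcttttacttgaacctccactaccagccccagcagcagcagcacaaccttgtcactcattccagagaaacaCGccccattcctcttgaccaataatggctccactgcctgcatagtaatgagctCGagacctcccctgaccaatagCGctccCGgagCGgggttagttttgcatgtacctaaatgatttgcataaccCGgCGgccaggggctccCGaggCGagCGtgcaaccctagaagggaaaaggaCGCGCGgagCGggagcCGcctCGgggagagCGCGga
Axin2: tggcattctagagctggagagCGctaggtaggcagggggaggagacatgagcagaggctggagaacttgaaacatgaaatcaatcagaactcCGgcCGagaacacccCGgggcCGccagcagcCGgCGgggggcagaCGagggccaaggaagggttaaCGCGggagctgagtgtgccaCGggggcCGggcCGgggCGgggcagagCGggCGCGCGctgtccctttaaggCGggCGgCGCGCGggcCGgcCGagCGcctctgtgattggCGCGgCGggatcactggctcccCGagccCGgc
The GC content was 67.7% in the Lgr6 window, 58.3% in the Lgr4 window, and the median over all windows was 52.7%. All 3 windows held more CG than the median window, that of the gene that fell included.

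Genes with related roles were read from lists of Wnt pathway genes. For these lists and the marker lists below, the shares over all tested genes in limma were 1.24% called higher and 2.61% called lower. By unadjusted p under 0.05 they were 7.02% higher and 8.93% lower. In a list of 24 Wnt feedback and target genes, which holds 8 of the genes described above, 23 were tested, 6 were called higher and 0 lower in limma (10 were higher and 1 lower by unadjusted p at the same threshold), and edgeR and DESeq2 each called 7 higher and 0 lower. The list's median log2 fold change was 0.43, beside -0.00275 over all genes tested, and 0.26 for the 15 tested genes of the list not described above. The called genes were Axin2, Lgr6 and Znrf3 together with Tnfrsf19, a receptor of the TNF family expressed in the follicle (240 ± 34.5 to 572 ± 43.8, log2 fold change 1.26), the D-type cyclin Ccnd1 (728 ± 126 to 1327 ± 90.0, 0.88) and Ccnd2 (4114 ± 422 to 6424 ± 463, 0.65; SD, n = 4 for each group). The transcription factor Tcf7 missed the threshold (0.82, limma adjusted p = 0.0513). The study reports Tcf7 and Ccnd genes as upregulated in these same cells, so neither median of the list is independent of known results. With both samples of replicate 3 left out, the calls were Tnfrsf19, Ccnd1 and Ccnd2, and without p16 replicate 1 they were the 6 without Znrf3.

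Axin2 stood alone among the genes of the destruction complex. Of 20 such genes tested it was the 1 called gene (median log2 fold change of the list -0.04), and its paralog Axin1, which is not a Wnt target, differed by 0.23 on the log2 scale (128 ± 18.9 to 150 ± 27.0, limma adjusted p = 0.494). Beta-catenin itself, Ctnnb1, differed by -0.28 (limma adjusted p = 0.0883), and DESeq2 called it lower. A list of other Wnt receptors, co-receptors and genes of receptor turnover held no Frizzled gene, so it says nothing about Frizzled receptors. The study reports lower mRNA of Frizzled genes in these cells. Of the 18 tested genes of the list, Znrf3 was called higher and the heparan sulfate proteoglycan Sdc1 lower (log2 fold change -0.48, limma adjusted p = 0.0322). Both calls were lost without control replicate 3, p16 replicate 1 or p16 replicate 3 and with both samples of replicate 3 left out. The Sdc1 call was also lost without control replicate 4 or p16 replicate 2.

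Among Wnt inhibitors outside the cell or at the membrane, 13 were tested, which include Apcdd1. Of these 5 were called lower and 0 higher in limma, with the same counts in edgeR and DESeq2 and 0 higher at an unadjusted p under 0.05. Of the 12 other than Apcdd1, 5 lay above 0 and 7 below, and whether this list differs from the feedback genes was not tested. Shisa2, which retains Frizzled receptors in the endoplasmic reticulum, fell from 95.6 ± 17.6 to 10.9 ± 3.97 (SD, n = 4 each; log2 fold change -3.07). Trabd2b, a protease that inactivates Wnt proteins, fell from 29.7 ± 11.5 to 3.95 ± 1.5 (-2.60), and the secreted Sfrp1, which binds Wnt proteins, from 655 ± 91.1 to 377 ± 56.0 (-0.80). Dkk3 (-1.04) and Igfbp4 (-0.86) were the other called genes, and Igfbp4, whose groups overlapped, passed in 4 of the 8 fits with 1 sample left out and was lost with both samples of replicate 3 left out.

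Markers of the places where Lgr genes are expressed were measured in the same samples. Of 12 tested markers of the hair follicle bulge, Lgr5 among them, 8 were called lower and 0 higher in limma (by unadjusted p, 2 were higher, edgeR called 0 and DESeq2 1 higher, and limma called 1 higher without control replicate 4 or without p16 replicate 4), with Cd34 from 169 ± 51.5 to 11.8 ± 4.08 (SD, n = 4 each), Lhx2 from 520 ± 111 to 120 ± 43.4, Krt15 (log2 fold change -0.56), Sox9 (-0.74), Nfatc1 (-0.51), Tcf7l1 (-1.34), Fgf18 (-2.27) and Dkk3 called. The summed level of the 12 markers, with Krt15 as the largest part, was 15310 to 20315 in control samples and 13294 to 13934 in p16 samples. Aldh3a1, which had the highest counts of them after Krt15, differed by 0.36 on the log2 scale, which did not pass (limma adjusted p = 0.0679) and was called higher by DESeq2. Postn differed by 0.73 (limma adjusted p = 0.272) and was called higher without p16 replicate 4. Without p16 replicate 1, 5 bulge markers were called lower, and with both samples of replicate 3 left out, 4. Krt15 passed in 3 of the 8 fits with 1 sample left out, and Sox9 and Fgf18 each in 4. Fgf18 was not above the limit of detection in any p16 sample, and it was not among the edgeR calls. Lgr4, and Lgr5 as 1 of these markers, lay on the same side of 0 as most of them. All tested markers of the isthmus and infundibulum (7), sebaceous gland (6) and melanocytes (6) lay on that side too, so it was not particular to the bulge. The part of a change in bulge cells in the Lgr4 and Lgr5 values was not tested.

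Of 7 markers of the follicle isthmus and infundibulum, the region in which Lgr6 is known, 4 were called lower and 0 higher in limma, edgeR and DESeq2 alike, and 0 were higher at an unadjusted p under 0.05. The called genes were Plet1 (log2 fold change -0.68), Gata6 (-0.84), Defb6 (-0.62) and Cst6 (-1.35), while Lrig1 (-0.18, limma adjusted p = 0.514) and the keratins Krt17 (-0.25) and Krt79 (-0.12) did not pass. In limma, 2 of them were called without control replicate 1, 3 or 4, without p16 replicate 1 or 3, and with both samples of replicate 3 left out. The summed level was 16422 to 24778 in control samples and 13287 to 16247 in p16 samples, and the part of these cells in the Lgr6 values was not tested. Of 8 basal interfollicular markers 0 were called in limma, edgeR or DESeq2 (by unadjusted p, 2 were higher and 0 lower, and without p16 replicate 2 limma called 1 higher). Of these 8 markers 5 lay above 0 and 3 below, with a median log2 fold change of 0.10, among them Krt5 (-0.33) and Krt14 (-0.23), which had the highest counts, and their sum overlapped between the groups (24610 to 41481 and 26593 to 30221).

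**Figure D5:**
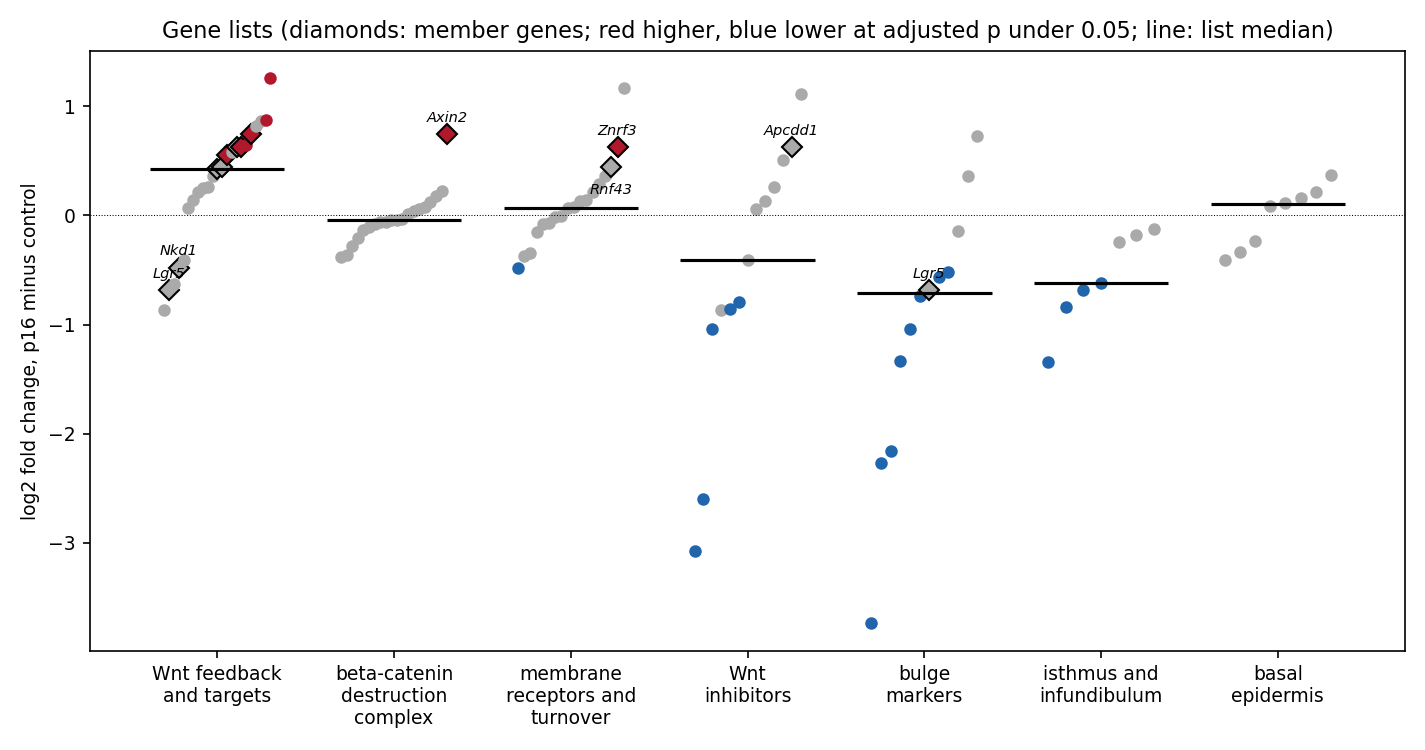
Log2 fold change of p16 minus control (y axis) for each tested gene of 7 lists (x axis), with called genes in red (higher) or blue (lower), the genes of the set as diamonds and the list median as a line. The median of the feedback and target list is 0.43 and that of the bulge markers, a list that includes Lgr5, is -0.71.

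Markers of other cells moved too. Of 6 tested sebaceous markers 5 were called lower in limma (Scd1, Mgst1, Pparg, Awat2 and Elovl3), with sums of 1328 to 1574 in control and 481 to 718 in p16 samples. Awat2 passed in 4 of the 8 fits with 1 sample left out. edgeR, DESeq2 and limma with both samples of replicate 3 left out each called the other 4, and edgeR tested 5 markers of this list, without Awat2. Fasn did not pass (-0.22, limma adjusted p = 0.509). Of 5 hair germ and matrix markers limma called Hoxc13 and Krt35 lower, but Krt35 passed in 1 of the 8 fits with 1 sample left out (that without control replicate 4), was also lost with both samples of replicate 3 left out, and was not tested in edgeR. In the same list Msx2 (log2 fold change 0.62, limma adjusted p = 0.282) and Cdh3 (0.16) did not pass. Suprabasal markers were split, with Lor called higher and Ivl and Sbsn lower in limma, while Krt10 (0.14) and Krt1 (0.57, limma adjusted p = 0.0952, called higher by DESeq2) did not pass. The lower count of 2 was 1 without control replicate 1, control replicate 3 or p16 replicate 1 and 0 with both samples of replicate 3 left out, and the higher count of 1 was 2 without control replicate 3 or p16 replicate 2. Melanocyte markers summed to 131 to 530 in control and 51.7 to 143 in p16 samples, with Dct and Tyrp1 called lower in limma and 4 markers, Mitf and Sox10 added, in DESeq2. In limma 0 melanocyte markers were called without control replicate 1 or 4 or without p16 replicate 1 or 3, and 1 without control replicate 2 or with both samples of replicate 3 left out. Of the 9 fibroblast markers, Dcn was called higher in limma and the sum was 31.7 to 74.8 in control and 75.7 to 244 in p16 samples. Without Dcn the sum was 27.5 to 68.9 in control and 39.5 to 40.8 in p16 samples, with Rspo3, also in this list, as the largest part. Col1a2 differed by -1.51 on the log2 scale (limma adjusted p = 0.0571, and called lower without control replicate 3). Col1a1, not above the limit of detection in control samples, went the other way (1.09, limma adjusted p = 0.285). Lum and Corin were listed at 0 in every sample. The immune list (Cd74, H2-Aa) had 0 calls among 5 genes tested in limma, 2 in edgeR and 6 fitted in DESeq2 (by unadjusted p in limma, 1 was higher). Of the endothelial list (Pecam1, Tek), limma tested 1 gene, Pecam1, edgeR 0, and DESeq2 fitted 2. No endothelial gene was called or higher by unadjusted p in limma, but with so few genes tested this says little. Lyz2, Cdh5, Kdr and Emcn were listed at 0. The part of these cells in the values of the Lgr and feedback genes was not tested.

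The genes whose pattern over the 8 samples was most like that of a receptor or of Axin2 were found by Pearson's r of log2(value + 1) among 7293 genes with a mean of at least 50. For Axin2 they were Fam83c (r = 0.972), Tnfrsf19 (0.969) and Ccnd2 (0.969), all 3 also called higher in p16 cells. For Lgr6 they were Rnf123 (0.973), Pskh1 (0.966) and Pacs1 (0.964), and for Lgr5 Vps18 (0.932), Kdm2b (0.919) and Whsc1 (0.914), none of which was called. The 8 points share the difference between the groups and the depth of each library, so these values are a description.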

How the data were processed

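RNA of the sorted cells was sequenced as 3′ libraries by an adapted CEL-Seq protocol. The submitters' processing notes name TopHat2, HTSeq, DESeq2 and the build GRCm38. Their versions, the annotation and the strand setting of the counting are not given in the sources used here, so reads of genes that overlap on opposite strands cannot be told apart. The deposited values are normalized read counts (a signal, counts divided by a size factor by the authors). Group means (also signal), a ratio on a log2 scale, a test statistic (score) and p-values of the authors' own comparison stand beside them in the deposited table and were not used. The labels hold 21 samples, of which 13 were not analysed here. The study's methods say that the replicates came from several independent experiments, but the labels do not say which sample came from which, so experiment was not a term in any fit.

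All values were whole multiples of 1 read (100% within 0.06 in each sample), which gave reads and depth per sample. Genes with a mean of at least 1 were tested with limma 3.58.1 (empirical Bayes with trend, log2(value + 1), no covariate, R 4.3.3), with Benjamini-Hochberg adjustment over 12782 genes. For low genes, fold changes on this scale depend on the added 1 and on single samples with few reads. The log2 fold change of Nkd1 was -0.48 in limma and -0.10 in DESeq2, and that of Apcdd1 0.62 and 0.28. Count tests on the recovered reads (edgeR 4.0.16 quasi-likelihood, DESeq2 1.42.0), other pseudocounts, filters and scalings, a replicate block, a term for the protocol wording and fits without 1 sample were alternatives, and the limma step was tested on simulated data. Ratios were tested exactly (SciPy 1.17.1). Coordinates are those of GENCODE for GRCm38. All 10 genes are named, with every called gene of 15 lists, the 2 genes of each marker list with the highest counts, and the 3 genes most like Lgr5, Lgr6 and Axin2. Other genes named (Rspo2, Rspo4, Axin1, Ctnnb1, Tcf7, Lrig1, Msx2, Col1a1, Col1a2, Postn, Fasn, Sox10 and those listed at 0) were chosen after their values were seen. The genes, lists and tests were chosen with earlier results of these data known.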

Additional observations from a re-analysis of the deposited data

Results flagged for a closer look

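Of 30 groups of 4 samples examined, 3 held a sample far from the others, and chance alone marks about 1 in 20 groups. In all 3, the gap of the extreme sample to its nearest neighbour is given as a part of the whole range of the group. For Lgr4 in p16 samples this was 0.856, since replicate 4 stood at 168.6 and the others between 252.7 and 266.9. For the Lgr6 to Lgr4 log2 ratio in p16 samples it was 0.848, since replicate 4 stood at 2.62 and the others between 1.54 and 1.71. Both values come from the same sample and share the Lgr4 measurement. For Rspo1 in p16 samples it was 1.0, which rests on 1 read in replicate 3.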

How the results depend on the processing

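With both samples of replicate 3 left out, 66 genes were higher and 157 lower, 0 genes of the set were called higher in limma (4 by unadjusted p; edgeR and DESeq2 were not run on this subset) and Lgr4 stayed called lower, while the Lgr6 to Lgr4 log2 ratio differed by 1.31 (exact permutation p = 0.1, the smallest 3 against 3 can give) and the Lgr4 to Lgr5 ratio turned to 0.24. At an unadjusted p under 0.05, 897 genes were higher (7.02% of those tested) and 1141 lower (8.93%), and of the set 4 were higher and 2 lower, Rnf43 and Lgr5 being added. Leaving out 1 sample at a time gave 69 (without p16 replicate 1) to 196 genes higher and 177 (without control replicate 1) to 343 lower, 2 to 3 of the set higher, Lgr6 to Lgr4 differences of 1.08 to 1.46 (exact permutation p = 0.0571, the smallest 3 against 4 can give) and Lgr4 to Lgr5 differences of -0.33 to 0.088. The log2 fold change of Nkd1 ranged from -1.03 to 0.12 (above 0 without p16 replicate 4) and that of Apcdd1 from -0.13 (without control replicate 2) to 1.17. Deviations of same-numbered samples from their group means correlated with r = 0.106, 0.0215, 0.0644 and 0.178 for replicates 1 to 4, all positive. Those of other pairs ranged from -0.161 to 0.131, and not every sample correlated best with its own number. The study states that both mouse groups were siblings raised and treated together, but the labels do not say which samples belong together. Pairing by number was therefore not in the main fit, although both samples of replicate 3 share a protocol wording. With the replicate block 216 genes were higher and 392 lower, with 3 and 1 of the set, and the Lgr6 to Lgr4 difference stayed at 1.33 with an exact permutation p of 0.125, the smallest 4 pairs can give. The cause of these shifts was not tested. edgeR, DESeq2, a pseudocount of 0.1, both other filters, total count scaling and the protocol term each called 3 genes of the set higher and 1 lower. Under total count scaling the median of all genes moved to 0.03. Nkd2 and Apcdd1 did not reach edgeR's filter. Rspo1, Nkd1, Nkd2 and Apcdd1 had few reads, and the effect of depth on their results was not tested.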

Other observations

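Among the p16 samples, replicate 4 held the lowest value of its group for 6 of them (Lgr4, Lgr5, Axin2, Nkd1, Nkd2 and Apcdd1) and the highest for 1 (Lgr6). Replicate 3 held the highest value for 7 and the lowest for 1 (Rnf43). In control cells, replicate 4, with the fewest reads, held the highest value for 5 genes and the lowest for 1. Without p16 replicate 4, Lgr4, Lgr6, Axin2 and Znrf3 all kept their calls in limma, with log2 fold changes of -0.63, 0.45, 0.77 and 0.65.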
